A study of Sus scrofa with 2 samples.

Results

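The miRNAs described here are those best known from leukocytes and inflammation, measured in 2 skeletal muscles of the pig. They were chosen by name, as every entry with the prefix ssc, for the pig, numbered miR-142, miR-146a, miR-146b, miR-155, miR-150 or miR-223, with either arm of the precursor. The rule found 6 of the 668 entries of the deposited table: ssc-miR-142-3p, ssc-miR-142-5p, ssc-miR-146a-5p, ssc-miR-146b-5p, ssc-miR-146b-3p and ssc-miR-155-5p. Small RNA was sequenced from the *psoas major* muscle (PMM), an oxidative muscle of the loin, and from the *longissimus dorsi* muscle (LDM), a glycolytic muscle of the back. Both were taken from the same 3 female Landrace pigs at 210 days of age, on the same diet and fasted before slaughter, and neither muscle received a treatment. The extraction note of the labels speaks of adipose tissue, but miR-1, miR-133a, miR-133b and miR-206, which mark striated muscle, were abundant. The highest entry of each summed to 508942 RPM (reads per 1000000 of the library) in PMM and 685600 RPM in LDM. Total RNA was mixed in equal parts over the pigs, so that each muscle was 1 library and the spread between animals was not measured. Every interval below is a 95% counting interval of these libraries, differences carry no p-value, and reads had no molecular identifiers to tell molecules from copies.

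A miRNA is cut from a hairpin whose 5p and 3p arms can each give a mature strand, and the strand guides repression of mRNAs that match its seed, bases 2 to 8. miR-142 is made almost only in cells of the blood-forming lineage, and in mouse and human both of its arms are used. miR-146a and miR-146b come from separate genes, share a seed, and in human and mouse cells restrain the signalling adaptors TRAF6 and IRAK1 downstream of Toll-like receptors. miR-146a is induced by the transcription factor NF-κB. miR-155 is induced in activated lymphocytes and macrophages. miR-150 marks mature lymphocytes and miR-223 marks neutrophils and monocytes. Resident macrophages, blood left in vessels and passing leukocytes can all bring such miRNAs into a piece of whole muscle, and in such bulk RNA a different number of cells cannot be told apart from a different amount of RNA per cell.

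The authors' consensus sequences are shown because the seeds define which members could act alike, and because the miR-146 strands are close enough for reads to be divided between them uncertainly. Each is written as DNA from 5′ to 3′, with the seed in capitals.

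miR-146a-5p: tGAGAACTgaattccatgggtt

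miR-146b-5p: tGAGAACTgaattccataggct

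miR-142-3p: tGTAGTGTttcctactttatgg

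miR-142-5p: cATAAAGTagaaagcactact

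miR-155-5p: tTAATGCTaattgtgataggg

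miR-146b-3p: gCCCTAGGaactcagttctgg

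miR-146a-5p and miR-146b-5p had the same seed and were identical at 20 of 22 positions. Counted from 1 at the 5′ end and written from miR-146a-5p to miR-146b-5p, they differed by G18A and T21C. No other of the 668 entries had the seed of any member or came within 2 substitutions of one at a shift of up to 2 bases. Laid against each other without gaps, the strands of miR-142 faced each other at 21 positions, of which 18 were Watson-Crick pairs and 1 was a G-U pair. The genes listed before and after the precursors were taken from the RefSeq annotation of assembly Sscrofa11.1, which is not the authors' build. MIR142 was listed between TSPOAP1 and SUPT4H1, MIR146A between the lncRNA LOC106506539 and PTTG1, MIR146B between CUEDC2 and LOC102167427, and MIR155 between the lncRNA LOC106505840 and MRPL39. Whether a neighbour also overlaps a precursor is not reported here.

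All 6 members had higher values in PMM than in LDM, and all were scarce in both muscles. For miR-146b-3p that difference was not detectable at this depth. Together they held 2589 normalised reads in PMM and 1229 in LDM, a ratio of 2.11 (1.96 to 2.26). As a share of each library this was 303 RPM in PMM (291 to 314) and 140.5 RPM in LDM (132.2 to 149). The libraries were deep, with 8556672 normalised reads in PMM and 8750049 in LDM, and 1 read counted as 1 unit in PMM and 1.15 units in LDM. The 5 members listed in both libraries held ranks 99 to 160 in PMM and 111 to 171 in LDM, where 593 entries were above 0 in PMM and 424 in LDM.

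**Figure D1:**
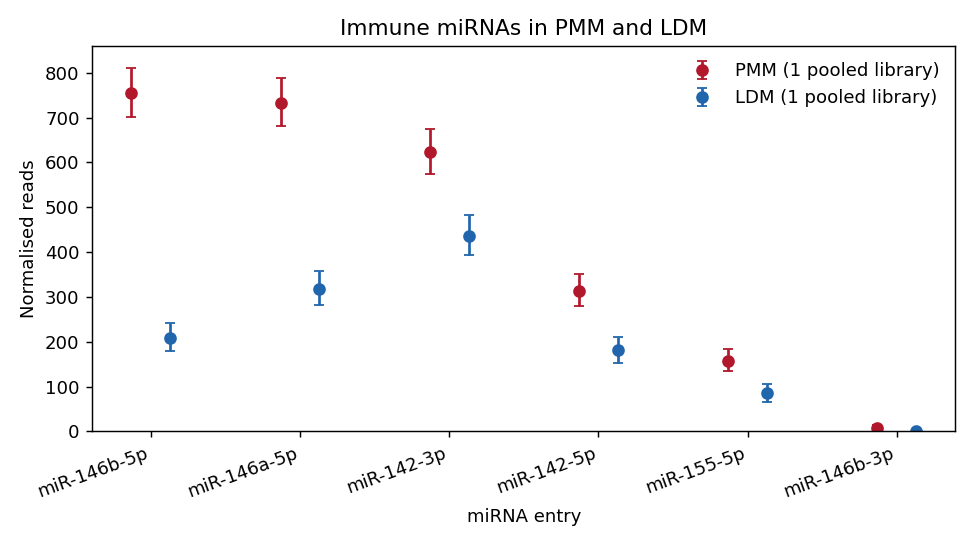
Normalised reads of the 6 immune miRNA entries (vertical axis) in the PMM library and the LDM library, with bars for the 95% Poisson counting interval. Each of the 5 higher entries lies above its LDM value in PMM, from 158 against 85.2 for miR-155-5p to 754 against 209 for miR-146b-5p, and miR-146b-3p lies at 7 in PMM and 0 in LDM.

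The miR-146 strands, which in other species act as a brake on innate immune signalling, differed most between the muscles. miR-146b-5p had 754 normalised reads in PMM and 209 in LDM, or 88.1 RPM in PMM and 23.9 RPM in LDM. Its ratio of 3.60 (3.06 to 4.26) was the largest of the members listed in both libraries. miR-146a-5p had 733 normalised reads in PMM and 318 in LDM, or 85.7 RPM in PMM and 36.3 RPM in LDM, a ratio of 2.31 (2.01 to 2.66). The ratio of miR-146b-5p was 1.56 times that of miR-146a-5p (1.25 to 1.94), so that these seed partners changed unequally beyond counting error. Within PMM they stood at nearly equal reads, with miR-146b-5p at 1.03 times miR-146a-5p (0.928 to 1.14), whereas in LDM it stood at 0.659 times (0.544 to 0.798). Since the strands differ at only 2 positions, the division of reads between them is uncertain, and their sum does not depend on it. The sum was 1487 normalised reads in PMM and 527 in LDM, a ratio of 2.82 (2.54 to 3.14).

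miR-142, the member most closely tied to blood-forming cells, gave the smallest ratio of the members listed in both libraries through its 3p arm. miR-142-3p had 623 normalised reads in PMM and 436 in LDM, a ratio of 1.43 (1.26 to 1.63), and was the highest of the members in LDM. miR-142-5p had 314 in PMM and 180.7 in LDM, a ratio of 1.74 (1.43 to 2.12). The arms differed in level in the same order in each muscle, with the 3p arm at 1.98 times the 5p arm in PMM (1.73 to 2.28) and at 2.41 times in LDM (1.999 to 2.93). The ratio of miR-142-5p was 1.22 times that of miR-142-3p (0.961 to 1.54), and a difference in arm use was therefore not detectable at this depth. Both arms together gave 937 normalised reads in PMM and 617 in LDM, a ratio of 1.52 (1.36 to 1.69).

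miR-155-5p, the strand induced on leukocyte activation in mouse and human, was the lowest of the members listed in both muscles. It had 158 normalised reads in PMM and 85.2 in LDM, or 18.5 RPM in PMM (15.7 to 21.6) and 9.73 RPM in LDM (7.64 to 12.2). The ratio was 1.86 (1.40 to 2.48), with the widest interval of these members relative to its value, and it rested on 158 reads in PMM and 74 in LDM.

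miR-146b-3p, the other strand of the miR-146b hairpin, had 7 reads in PMM and was listed at 0 in LDM. Values under 3 reads did not occur above 0 in either library, so a 0 may stand for 1 or 2 reads. Against a floor of 3 reads in LDM the ratio of the strand was 2.03, with a counting interval of 0.463 to 12.2 at that floor. A difference was therefore not detectable. It made up 0.920% of the miR-146b reads in PMM (0.371 to 1.89). At the same share the 182 reads of miR-146b-5p in LDM would go with 1.69 reads of the 3p strand (0.677 to 3.50 from the interval of the share), so the 0 in LDM carries little information on arm use.

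Of the 12 arms searched by name, 6 were not listed: miR-146a-3p, miR-155-3p and both arms of miR-150 and of miR-223. An entry absent by name may still be present under another name. The table held 100 entries with names beginning PN and 287 with names beginning PC, whose identity is not given in the sources used here, and without reference sequences these were not matched to miRNA names. No level is therefore given for the lymphocyte miRNA miR-150 or the myeloid miRNA miR-223 in either muscle.

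The makeup of the member reads differed between the libraries. miR-146b-5p took 29.1% of them in PMM and 17.04% in LDM. miR-142-3p took 24.1% in PMM and 35.5% in LDM. miR-146a-5p took 28.3% in PMM and 25.8% in LDM, miR-142-5p took 12.1% in PMM and 14.7% in LDM, and miR-155-5p took 6.10% in PMM and 6.93% in LDM. The order by level ran from miR-146b-5p and miR-146a-5p to miR-142-3p in PMM, and from miR-142-3p and miR-146a-5p to miR-146b-5p in LDM, although the miR-146 strands were not told apart in PMM.

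**Figure D2:**
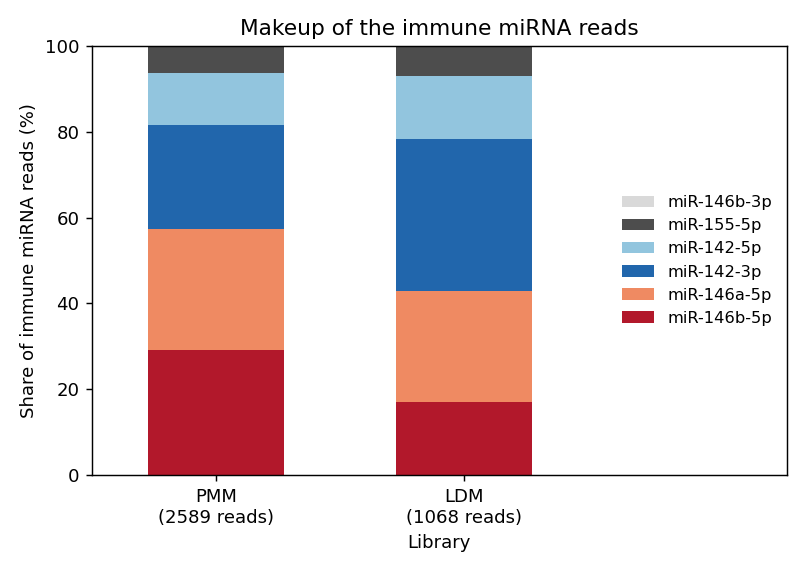
Share of the immune miRNA reads (vertical axis, percent) taken by each entry in PMM (2589 reads) and in LDM (1068 reads). The miR-146b-5p segment is 29.1% of the PMM bar and 17.04% of the LDM bar, and the miR-142-3p segment 24.1% of the PMM bar and 35.5% of the LDM bar.

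By the ratio of PMM to LDM the members fell in the order miR-146b-5p, miR-146a-5p, miR-155-5p, miR-142-5p and miR-142-3p. Of the 10 pairs among these 5, 6 had ratios that differed beyond counting error. All 4 pairs with miR-146b-5p were among them, up to 2.52 times between miR-146b-5p and miR-142-3p (2.04 to 3.12). The ratio of miR-146a-5p exceeded that of miR-142-3p by 1.62 times (1.33 to 1.96) and that of miR-142-5p by 1.33 times (1.04 to 1.69). Among neighbours in the order, miR-146a-5p and miR-155-5p (1.24 times, 0.899 to 1.71), miR-155-5p and miR-142-5p (1.07 times, 0.754 to 1.52) and the arms of miR-142 were not told apart.

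**Figure D3:**
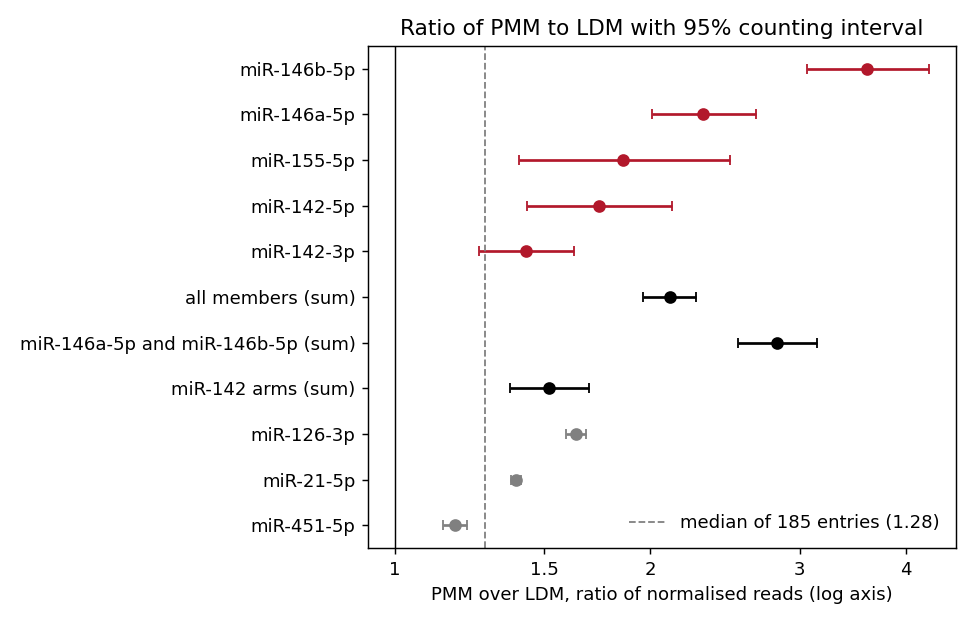
Ratio of normalised reads in PMM over LDM (log axis) with 95% exact counting intervals. Shown are 5 immune miRNAs (red), sums of members (black) and, in grey, miR-126-3p, miR-21-5p and miR-451-5p. A solid line stands at 1 and a dashed line at 1.28, the median of 185 entries. The intervals of the 5 immune miRNAs lie above 1, and that of miR-142-3p, 1.26 to 1.63, also holds the dashed line.

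Higher values in PMM were common in these libraries, and the members were read against that. For the 185 entries that averaged at least 10 RPM over the libraries, the median log2 ratio, computed with 1 RPM added to both values, was 0.35, which is 1.28-fold in favour of PMM. The 5 members that reached 10 RPM had a median log2 ratio of 0.83. Over all 6 members it was 0.84, or 0.92 with miR-146b-3p, which fell below 10 RPM, set against the floor of 3 reads in LDM. At least 2-fold higher in PMM were 2 of the 5 members that reached 10 RPM, miR-146b-5p (log2 ratio 1.81) and miR-146a-5p (1.18), beside 21.6% of all entries at that level. At least 2-fold lower were 0 of the 5 members, beside 6.49% of entries. The counting interval lay wholly above 1 for 5 of 5 members and for 61.6% of entries, and wholly above the median ratio for 4 of 5 members, all but miR-142-3p, and for 43.2% of entries. The log2 ratio of miR-146b-5p was exceeded by 11 of the 185 entries and that of miR-146a-5p by 31, against 81 for miR-142-3p.

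**Figure D4:**
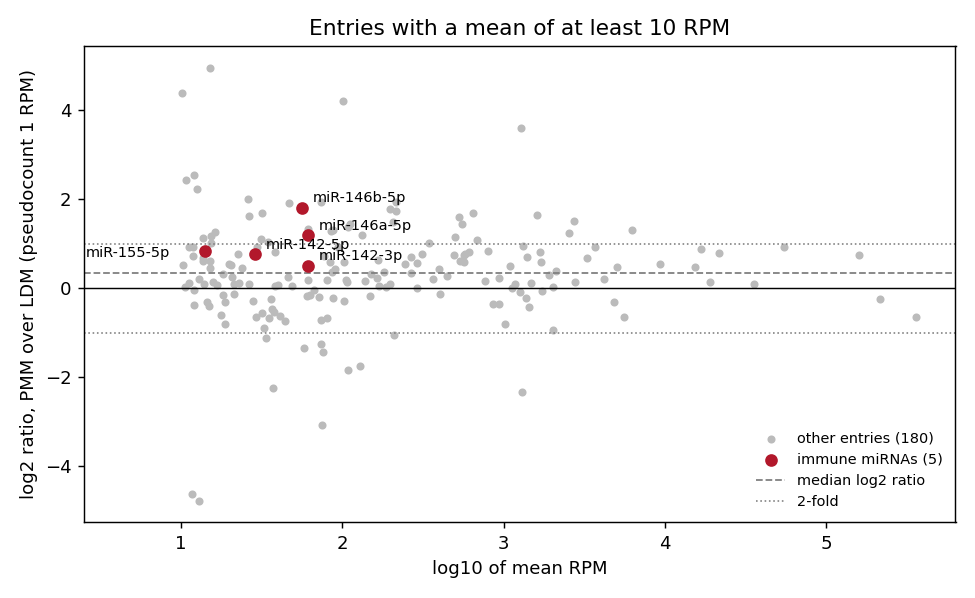
Log2 ratio of PMM over LDM (vertical axis, 1 RPM added to both values) against the log10 of the mean RPM for the entries above 10 RPM, with 180 other entries in grey and 5 immune miRNAs in red. The red points lie between 0.51 and 1.81, all above the dashed median at 0.35, and 2 of them lie above the dotted 2-fold line.

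The scaling of the libraries set how large these differences were and did not change their direction. Among all 185 entries 40 were at least 2-fold higher and 12 at least 2-fold lower as deposited, but 24 and 21 after the median ratio was set to 1. They were 28 and 17 under a trimmed mean of the log ratios, and 23 and 24 when each library was scaled to its total without the 10 highest entries. Under these 3 scalings the log2 ratio of miR-146b-5p was 1.45, 1.53 and 1.43, and that of miR-146a-5p was 0.83, 0.91 and 0.81, below the 2-fold limit. miR-142-3p came to 0.15, 0.23 and 0.13, while miR-155-5p came to 0.48, 0.56 and 0.45 and miR-142-5p to 0.42, 0.50 and 0.39. With the median ratio set to 1, or with the total without the 10 highest entries, the difference of miR-142-3p was not beyond counting error. Its interval held 1 once scaled by 0.783 or by 0.770. Under the trimmed mean, a factor of 0.828, the interval stayed above 1.

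miRNAs of blood and vessels gave values to set the members against. miR-451-5p of red blood cells had 8781 normalised reads in PMM and 7461 in LDM, a ratio of 1.18 (1.14 to 1.22), but its log2 ratio of 0.23 turned to −0.12, −0.038 and −0.14 under the 3 scalings above. It was the only 1 of 3 red cell miRNAs listed by name, since miR-144 and miR-486 were not. Per 1000 reads of miR-451-5p the members gave 295 reads in PMM and 165 in LDM, a ratio of 1.79 (1.65 to 1.94), from 1.21 for miR-142-3p (1.06 to 1.39) to 3.06 for miR-146b-5p (2.59 to 3.63). Endothelial miR-126-3p had 14898 normalised reads in PMM and 9123 in LDM, a ratio of 1.63 (1.59 to 1.68). Per 1000 reads of miR-126-3p the members gave 174 reads in PMM and 135 in LDM, a ratio of 1.29 (1.19 to 1.39). On that measure miR-146b-5p (2.20, 1.87 to 2.61) and miR-146a-5p (1.41, 1.23 to 1.63) were higher in PMM, miR-155-5p (1.14, 0.856 to 1.52) and miR-142-5p (1.06, 0.874 to 1.30) were not told apart from 1, and miR-142-3p was at 0.875 (0.766 to 0.999). This depended on the arm of miR-126. miR-126-5p had 8499 normalised reads in PMM and 2644 in LDM, a ratio of 3.21 (3.07 to 3.37). Per 1000 reads of miR-126-5p, used after the data were seen, the members gave 305 reads in PMM and 465 in LDM, a ratio of 0.655 (0.602 to 0.714). There miR-146a-5p was lower in PMM at 0.718 (0.620 to 0.834), miR-155-5p, miR-142-5p and miR-142-3p were lower at 0.577, 0.541 and 0.444, and miR-146b-5p was not told apart from 1 (1.12, 0.945 to 1.33). The highest entries of the 3 endothelial miRNAs summed to 1774 RPM in PMM and 1068 RPM in LDM, which leaves out miR-126-5p and miR-221-5p. Of these highest entries, miR-221-3p had a ratio of 1.46 (1.16 to 1.84) and miR-222-3p a ratio of 0.882 (0.623 to 1.25). Striated muscle miRNAs, also by the highest entry of each, mostly ran the other way, with 3 of 4 lower in PMM. The exception was miR-206-3p, at 1.39 (1.38 to 1.40). Their summed ratio of 0.726 rested mainly on miR-1-3p and miR-133a-3p, which held 286884 and 199809 of 508942 RPM in PMM. The part of red cells, vessels or muscle fibres in the result for the members was not tested.

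Other miRNAs linked to leukocytes or inflammation, which are also made in other cells, did not share a direction. Of 12 searched by name 7 were listed and 6 had a highest entry of at least 10 RPM, 4 of them higher in PMM and 2 lower as deposited, or 5 higher and 1 lower with the values of miR-23a-3p exchanged. miR-21-5p, abundant in fibroblasts and macrophages, had 50550 normalised reads in PMM and 36415 in LDM, a ratio of 1.39 (1.369 to 1.408). miR-27a-3p had 3970 normalised reads in PMM and 1963 in LDM, a ratio of 2.02 (1.91 to 2.14). miR-9-5p, best known from nerve tissue, had 182 in PMM and 32.2 in LDM, a ratio of 5.65 (3.78 to 8.74). miR-125b-5p was near 1, at 1.07 (1.04 to 1.10), and was lower in PMM under the 3 scalings. miR-181a-5p, a miRNA of lymphocyte development that muscle also makes, was at 0.521 (0.509 to 0.533). Its 3p entries, which are lower in level, did not share a direction. miR-181a-1-3p was at 0.278 (0.248 to 0.311) and miR-181a-2-3p at 1.70 (1.63 to 1.78). miR-23a-3p was listed at 0.571, but its row alone broke the pattern of whole reads in these libraries. Its PMM value was 5557 of the steps that mark 1 read in LDM, and its LDM value of 11204 was a whole number as in PMM, so the columns of this row may be exchanged. Exchanged, its ratio was 1.75 (1.70 to 1.81), higher in PMM. miR-338, with both entries below 10 RPM, was at 1.52 for the 5p arm (0.968 to 2.43) and 1.68 for the 3p arm (0.872 to 3.37). Neither was told apart from 1. miR-342, miR-132, miR-147, miR-203 and miR-511 were not listed by name.

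Among pig entries of at least 10 RPM, the 3 whose log2 ratio lay nearest that of the summed members (1.07) were let-7c-5p (1.08), miR-221-5p (1.03) and miR-17-3p (1.13). With 1 library per muscle this likeness rests on a single ratio.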

How the data were processed

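The deposited table listed each miRNA entry with a consensus sequence and a value for PMM and LDM. The deposited values are normalised reads, per the file headers, and were handled as a signal. Per the submitters' notes the build was Sscrofa 10.2. The mapper, the miRNA reference and the normalisation method are not given in the sources used here. Of the values above 0, 592 of 593 in PMM and 423 of 424 in LDM were whole multiples of 1 and 1.15 units (tolerance 0.001), which were taken as 1 read. The exception in both was miR-23a-3p. The deposited p-value column holds the authors' own comparison and was not used, nor was their sum.

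Ratios are PMM over LDM without a pseudocount, with exact conditional binomial intervals. Shares have Clopper-Pearson intervals, comparisons of ratios conditional odds ratio intervals. Intervals and the floor of 3 reads cover counting error only. Log2 ratios carry 1 RPM (8.65 units). Limits were a mean of 10 RPM and 2-fold. The trimmed mean dropped 30% of ratios and 5% of levels at either end. Members and lists were chosen with earlier results of these data known. Named were all members, entries sharing a seed or nearly a sequence, the 3 nearest ratios and listed members of the marker lists. Scaling, pseudocount, filter, fold limit and the entries summed were varied. The scripts, tested on simulated data, ran in Python 3.11.15 with scipy 1.17.1, numpy 2.4.6, pandas 2.3.3 and matplotlib 3.10.9.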

Additional observations from a re-analysis of the deposited data

How the results depend on the processing

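All 6 members stayed higher in PMM under the 6 scalings and pseudocounts tried, in 36 of 36 values. A pseudocount added to both values cannot turn a direction, and equal library totals raised every ratio. Only the other 3 scalings could turn one. After centring, or with the total without the 10 highest entries, the difference of miR-142-3p was not beyond counting error, since its scaled interval held 1. Centring, trimming and leaving the 10 highest entries out of the total each multiply every ratio by 1 factor. In these libraries the factors were 0.783, 0.828 and 0.770, so that every ratio fell. The ratio of summed members (2.11) was 1.65 after centring, 1.74 with the trimmed mean and 1.62 with the total without the 10 highest. It was 2.48 without miR-142-3p, the member with the highest mean, and 1.79 without miR-146b, an alternative chosen after seeing the data. The median log2 ratio of all 6 members (0.84) was 0.46 with the total without the 10 highest. The number of members at least 2-fold higher (2) was 1 under each of those 3 scalings, 4 at a limit of 1.5-fold and 0 at 4-fold. The share of all entries at least 2-fold higher (21.6%) was 12.97%, 15.1% and 12.4% under those scalings in the same order, 40% at 1.5-fold, 4.32% at 4-fold and 12.6% with no filter. The log2 ratio of miR-146b-3p, listed at 0 in LDM, was 3.18 with 0.1 RPM and 0.22 with 5 RPM added. No paired analysis was possible because each muscle was 1 pooled library. The log2 ratios of miR-451-5p and miR-125b-5p were −0.12 and −0.25 with the median ratio set to 1, −0.038 and −0.17 with the trimmed mean, and −0.14 and −0.28 when the 10 highest entries were left out of the total. These scalings were applied to both miRNAs, to the number of members and to the share of entries after seeing the data. Each shifts all log2 ratios by the same amount, here −0.35, −0.27 and −0.38. The directions turned because the deposited log2 ratios, 0.23 for miR-451-5p and 0.0995 for miR-125b-5p, were smaller than these shifts. Which scaling is the right one was not tested. Per read of miR-126-5p in place of miR-126-3p, an alternative chosen after seeing the data, the ratios were 0.655 for the summed members, 0.718 for miR-146a-5p, 0.541 for miR-142-5p and 0.577 for miR-155-5p, against 1.29, 1.41, 1.06 and 1.14. Exchanging the columns of miR-23a-3p, also chosen after the data were seen, turned its ratio of 0.571 to 1.75.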
